A study of Mus musculus with 18 samples.

Results

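In mouse dermis, 10 genes of fatty acid and triglyceride synthesis were followed through the day: Dgat1, Dgat2, Acly, Acaca, Fasn, Scd1, Scd2, Elovl6, Srebf1 and Lpin1. They were picked by name for their place in the pathway, with earlier results of these data known. All 10 of 10 were found among the 32285 genes of the count matrices. The cells came from the dorsal dermis of wild-type male C57BL/6J mice, about 54 days old, with telogen (resting hair cycle) skin, kept in cycles of equal light and dark. The 18 single-cell libraries, 1 mouse each, covered 6 zeitgeber times (ZT, hours after lights on), ZT2, ZT6, ZT10, ZT14, ZT18 and ZT22, with 3 libraries at each. No mouse was treated or carried a mutation, so by design the groups differ only in the time of collection. The 3 mice of a time were collected in successive 24 h cycles, from hour 2 to hour 70. The labels give no processing batch, and the libraries also differed in size, from 177 to 1998 cells kept.

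Fatty acids are built in the cytosol from acetyl-CoA, which ATP citrate lyase (Acly) cuts from citrate. Acetyl-CoA carboxylase (Acaca) and fatty acid synthase (Fasn) turn it into palmitate, Elovl6 lengthens the chain, and the desaturases Scd1 and Scd2 put in a double bond. Lipin 1 (Lpin1) makes diacylglycerol, and the acyltransferases Dgat1 and Dgat2, which are unrelated in sequence, add the last acyl chain of a triglyceride. Srebf1 encodes SREBP-1, a transcription factor that drives many genes of the pathway. In skin the pathway is best known from adipocytes and sebaceous glands.

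Cells were sorted into types by clustering without these 10 genes, without the other lipid genes and without clock genes, and clusters were named from markers. Of 16877 cells, 12300 in 9 clusters were fibroblast-like and 3338 in 8 clusters were immune-like. Unique molecular identifiers (UMIs, each standing for a captured transcript) were summed over the cells of a type in each library, and a level is given as UMIs of a gene per 10000 UMIs of that sum. The sums held between 2899049 and 33523659 UMIs for fibroblast-like cells and between 481549 and 5787721 for immune-like cells, so the same gene is measured with a larger counting error in immune-like cells. Levels of different genes are not compared with each other.

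Of the 10 genes, 2 passed the test of a 24 h rhythm in fibroblast-like cells, Dgat2 and Fasn, and their peaks lay on opposite sides of the day. Dgat2 was high in the second part of the light phase and 14.1-fold lower at ZT22 than at ZT10. Fasn was 1.67-fold higher at ZT2, its highest time, than at ZT10, its lowest. The call for Dgat2 held under all 11 other settings of the analysis, but that for Fasn under 7 of 11. None of the 10 genes passed the same test in immune-like cells, and no difference in rhythm between the cell types passed for any of them. The rhythm was tested with edgeR's quasi-likelihood test of 24 h cosine and sine terms, with Benjamini-Hochberg adjustment over all genes tested and an adjusted p under 0.05 as the threshold. In fibroblast-like cells 13.5% of 12794 genes passed it, so 2 of 10 is a share near that of genes in general.

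Dgat2 encodes the acyltransferase that works mostly on newly made fatty acids, at the endoplasmic reticulum and the lipid droplet. The gene lies on chromosome 7 (GRCm38 chr7:99153658-99182719, minus strand). At ZT10 the 3 fibroblast-like sums held 0.0724, 0.0771 and 0.0743 UMIs of Dgat2 per 10000. At ZT22 they held 0.00617, 0.00374 and 0.00594. No library of one time came near those of the other, and the spread within a time was small against the gap, at 0.0746 ± 0.00234 and 0.00528 ± 0.00134 (mean ± SD, n = 3 each).

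The other times filled in a curve. Levels were 0.0129, 0.00686 and 0.00955 at ZT2 and 0.0408, 0.0388 and 0.0567 at ZT6. They were 0.0356, 0.0503 and 0.0265 at ZT14 and 0.00345, 0.0128 and 0.00617 at ZT18. All 9 libraries of ZT6, ZT10 and ZT14 were above all 9 of ZT18, ZT22 and ZT2. The fitted log2 amplitude was 2.05 ± 0.12 (jackknife SE over 18 libraries), a 17.1-fold change from trough to peak, with the peak at ZT9.63 ± 0.29 h (adjusted p = 3.63e-08 by edgeR). These values rest on few molecules, 770 Dgat2 UMIs in all and from 1 to 162 in a library. When the fibroblast-like sums were thinned to the UMI totals of the immune-like ones, the rhythm still passed (edgeR adjusted p = 0.000102, log2 amplitude 1.95).

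**Figure D1:**
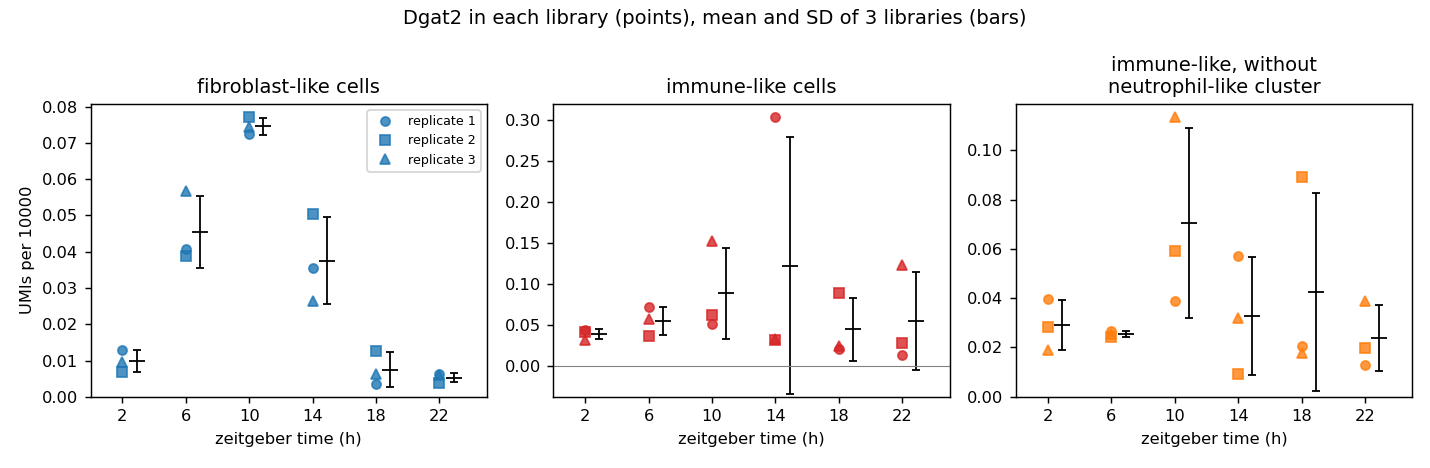
Dgat2 level (UMIs per 10000, y axis, a separate scale in each panel) by zeitgeber time in hours (x axis) in fibroblast-like cells, immune-like cells and immune-like cells without the neutrophil-like cluster; points are libraries and bars the mean ± SD of 3. The fibroblast-like libraries of ZT10 sit between 0.0724 and 0.0771 and those of ZT22 at or below 0.00617, while 1 immune-like library of ZT14 stands alone at 0.304.

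The share of cells in which Dgat2 was detected changed with its level. A Dgat2 UMI was found in 13.6% ± 0.970 of fibroblast-like cells at ZT10 and in 1.12% ± 0.261 at ZT22 (mean ± SD of 3 libraries). With each cell thinned to 5000 UMIs, which leaves out 282 of the fibroblast-like cells for being shallower, the shares were 3.56% ± 0.943 and 0.0797% ± 0.138. The mean number of Dgat2 UMIs in a cell that had any was 1.18 at ZT10 and 1.04 at ZT22. Thus most of these cells had a single UMI at either time, and the share is another reading of the level, not a separate change.

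Dgat2 was highest at ZT10 in 8 of the 9 fibroblast-like clusters and lowest at ZT18 or ZT22 in all 9. The exception, led by Cilp and Mgp, was highest at ZT6, but from 5 UMIs in 59 cells against 7 UMIs in 130 cells at ZT10. The clusters come from the same 18 libraries and are not replicates of each other. At ZT10 the summed level of a cluster lay between 0.0372, in the cluster led by Cthrc1 and Tnmd, and 0.104, in the cluster led by Cxcl1 and Has1, among those 8. In the cluster with the most cells, tested alone, the log2 amplitude was 1.83 (edgeR adjusted p = 2.21e-05).

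Among 7807 genes with at least 1 UMI per 100000, those whose log2 level followed Dgat2 most closely over the 18 fibroblast-like sums were Rere, a transcriptional corepressor (Pearson r = 0.910), Por, the electron donor of cytochrome P450 enzymes (r = 0.907), and Lrrn4cl (r = 0.904). Their fitted peaks were at ZT9.36, ZT10.5 and ZT9.25. The clock genes give the reference for these hours. Nr1d1 and Nr1d2, which encode the REV-ERB repressors, peaked at ZT8.11 and ZT9.44, Dbp, a clock output factor, at ZT9.87, and Per3 at ZT11.1. Per2 peaked at ZT14.4, and Arntl, which encodes the activator BMAL1, at ZT22.5. All 6 clock genes passed the test in fibroblast-like cells. The fitted log2 amplitude of Dgat2 lay between that of Nr1d2, 1.74, and that of Arntl, 2.27, and that of Dbp was 2.90.

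Fasn encodes the multi-domain enzyme that makes palmitate, and lies on chromosome 11 (GRCm38 chr11:120805846-120824547, minus strand). Its levels in fibroblast-like cells were 0.314, 0.228 and 0.273 at ZT2 and 0.172, 0.182 and 0.134 at ZT10. The libraries of these times did not overlap, at 0.272 ± 0.0428 against 0.163 ± 0.0251. In 61.6% of all genes tested the highest and lowest time did not overlap either. Levels were 0.170, 0.189 and 0.182 at ZT6 and 0.196, 0.250 and 0.305 at ZT22. At ZT14 (0.244, 0.203 and 0.224) and ZT18 (0.210, 0.285 and 0.219) they were in between and overlapped those of ZT22. The fitted log2 amplitude was 0.30 ± 0.08, a 1.52-fold change from trough to peak, with the peak at ZT21.8 ± 1.00 h (edgeR adjusted p = 0.0234).

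The call for Fasn is close to the threshold. It was lost without ZT10 replicate 3 (edgeR adjusted p = 0.0514) and without ZT22 replicate 3 (0.0554), when the times were taken as 6 unordered groups (0.0506), in the largest cluster alone (0.362) and after thinning to the immune-like totals (0.201), and JTK_Cycle, a rank test for periodic series, gave an unadjusted p of 0.0708. The fitted peak was between ZT21.6 and ZT21.8 in those edgeR fits that give one. Fasn was lowest at ZT10 in 7 of the 9 fibroblast-like clusters and at ZT6 in the other 2. The genes whose log2 level followed it most closely over the 18 sums were Fdps, an enzyme of isoprenoid and cholesterol synthesis (r = 0.890), and Crkl, a signalling adaptor (r = 0.862), with fitted peaks at ZT22.8 and ZT23.1.

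A promoter was matched for 6 of the 10 genes, Acly, Acaca, Fasn, Elovl6, Srebf1 and Lpin1, and not for Dgat1, Dgat2, Scd1 and Scd2. Those of Fasn and of the innermost of 3 Srebf1 starts are printed because these genes had neighbouring fitted peaks, though Srebf1 did not pass the rhythm test. The sequences are the 250 bases before the start from RefSeq (GRCm38.p6), 5′ to 3′ on the gene's strand, here minus for both, at chr11:120824548-120824797 for Fasn and chr11:60210472-60210721 for Srebf1. Capitals mark matches to CCAAT on either strand (ATTGG on the other), the letters of the box bound by NF-Y, and the 2 rightmost matches in Fasn share bases.
Fasn: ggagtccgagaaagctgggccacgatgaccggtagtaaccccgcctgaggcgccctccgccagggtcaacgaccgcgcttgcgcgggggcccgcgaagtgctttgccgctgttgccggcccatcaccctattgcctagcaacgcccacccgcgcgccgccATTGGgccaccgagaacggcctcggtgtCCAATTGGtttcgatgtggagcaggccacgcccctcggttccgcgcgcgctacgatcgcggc
Srebf1: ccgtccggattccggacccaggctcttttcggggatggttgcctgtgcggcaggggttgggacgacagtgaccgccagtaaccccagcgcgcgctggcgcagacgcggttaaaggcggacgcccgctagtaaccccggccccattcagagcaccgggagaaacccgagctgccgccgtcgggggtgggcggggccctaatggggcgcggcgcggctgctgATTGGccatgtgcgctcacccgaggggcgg

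Fasn held 3 CCAAT matches and this Srebf1 start 1, and 33.8% of the 32851 promoters in the table held at least 1 in the same 250 bases. The outermost Srebf1 start also held 1, and the middle start held none. The promoters of Acly, Elovl6 and Lpin1 held none either, nor did the window of Acaca. That window (chr11:84195188-84195437) lies within the Acaca gene (chr11:84129672-84401651, plus strand). The bases before the gene's outer end were therefore not searched. Neither of the printed windows held the E-box CACGTG (6.02% of promoters), the D-box TTATGNAA (3.07%) or the SREBP element TCACNCCA (3.67%). The GC box GGGCGG (32.7%) had 2 matches in the printed Srebf1 window and 0 in that of Fasn. All were searched on both strands, where N is any base. Among the 6 genes, those with a match to the ROR element core AGGTCA (14% of promoters) were those of Acly, Elovl6 and Lpin1, with 1 each. A match is a description of the letters in this window and not a measured site.

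Srebf1, which encodes the regulator of the pathway, fell just short of the threshold (edgeR adjusted p = 0.0538). Its levels were 0.434, 0.377 and 0.440 at ZT2 and 0.237, 0.298 and 0.301 at ZT10, without overlap. Such a gap between highest and lowest time was found in 61.6% of all genes tested. The fitted log2 amplitude was 0.23 ± 0.07 and the peak at ZT23.2 ± 1.26 h. With the replicate number, which stands for the 24 h cycle of collection, as a block, the adjusted p was 0.0481 by edgeR, and it was 0.00992 without ZT22 replicate 1 and 0.0486 without ZT18 replicate 2. Srebf1 passed under 3 of the 11 other settings in all. Of the 18 fits that left out 1 library, it passed in these 2 only, and the edgeR adjusted p reached 0.110 among the rest.

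The 2 desaturase genes, both on chromosome 19, had their lowest mean at the same time. Scd1 levels were 1.17, 1.21 and 1.22 at ZT2 and 0.772, 0.826 and 0.837 at ZT6, its lowest time. Scd2 levels were 0.881, 0.831 and 0.728 at ZT6, where it was also lowest, and 1.82, 1.75 and 1.44 at ZT18, where its mean was highest. In both genes the highest and lowest time did not overlap, as in 61.6% of all genes tested. The mean differed 1.48-fold for Scd1 and 2.05-fold for Scd2. The fitted peaks were at ZT21.0 ± 1.38 h and ZT19.3 ± 1.34 h (edgeR adjusted p = 0.0632 and 0.0728).

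When 1 library was left out at a time, Scd1 passed in 2 of 18 fits and Scd2 in 4 of 18 (edgeR). One of these libraries stood apart from the others of its time for both genes. ZT14 replicate 1 held 0.770 of Scd1 and 0.914 of Scd2, below the other libraries of ZT14, which held 1.06 and 1.20 of Scd1 and 1.60 and 1.74 of Scd2. It also had the highest level of Acly of all 18, 1.41 against at most 1.05. Without it, Scd1 (edgeR adjusted p = 0.0321), Scd2 (0.0369) and Elovl6 (0.0433) passed, and 5 of the 10 genes did in all. The same library held 92 of the 148 neutrophil-like cells of the series.

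Acaca, which makes the malonyl-CoA that Fasn uses, held 0.138, 0.104 and 0.129 at ZT6 and 0.194, 0.204 and 0.207 at ZT14. These times, its lowest and highest, did not overlap, as in 61.6% of all genes tested. The 24 h fit did not pass (edgeR adjusted p = 0.103, peak at ZT18.0 ± 1.13 h). Acaca passed when the times were taken as 6 unordered groups (0.0281). Acly, one step before, was at 0.912 ± 0.149 (SD, n = 18), with a log2 amplitude of 0.09 ± 0.05 (edgeR adjusted p = 0.567). Elovl6 had its highest mean at ZT2, 0.0609 ± 0.0158, and its lowest at ZT18, 0.0293 ± 0.00437 (edgeR adjusted p = 0.313), from 1179 UMIs in all.

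Lpin1, whose product acts one step before the acyltransferases, had its fitted peak in the middle of the light phase, at ZT6.65 ± 1.21 h (log2 amplitude 0.28 ± 0.09, edgeR adjusted p = 0.0726). Its levels were 0.110, 0.165 and 0.110 at ZT6 and 0.0758, 0.0984 and 0.0891 at ZT22. It passed without ZT18 replicate 1 (0.0249). Dgat1, the second acyltransferase gene, was at 0.116 ± 0.0116 (SD, n = 18) and ranged only from 0.0934 to 0.136 over the libraries (log2 amplitude 0.10 ± 0.04, edgeR adjusted p = 0.343). So the 2 acyltransferase genes had fitted log2 amplitudes of 0.10 and 2.05 in the same sums.

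**Figure D2:**
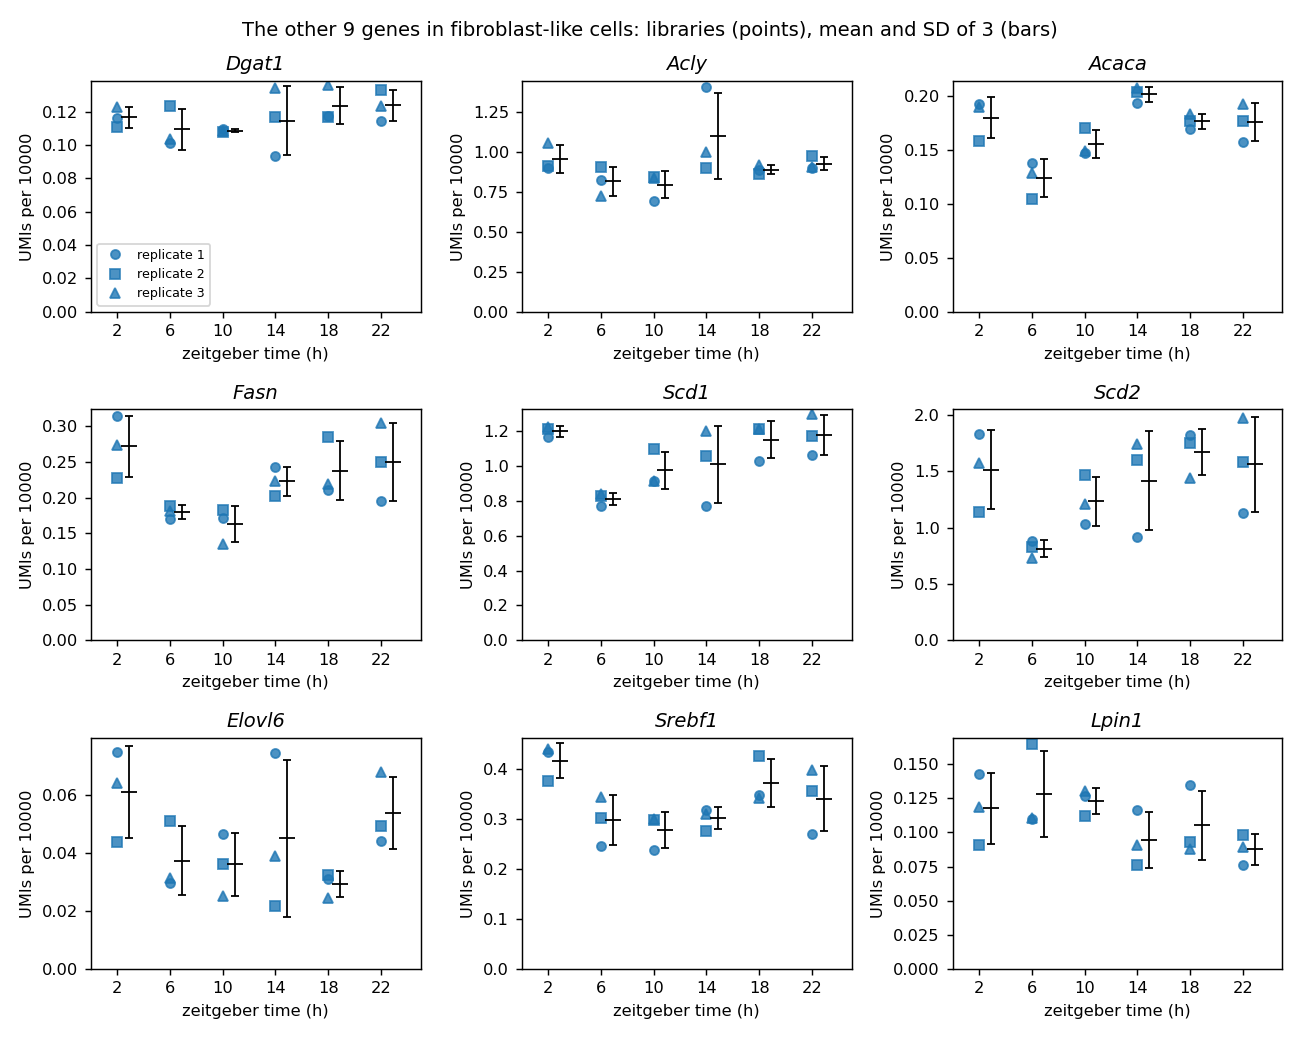
Levels (UMIs per 10000, y axis from 0, a separate scale in each panel) of the other 9 genes in fibroblast-like cells by zeitgeber time in hours (x axis); points are libraries, bars the mean ± SD of 3. Fasn and Srebf1 have their lowest mean at ZT10 and Acaca, Scd1 and Scd2 at ZT6, and the libraries of Dgat1 stay between 0.0934 and 0.136.

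At an unadjusted p under 0.05, 7 of the 10 genes passed in fibroblast-like cells against 29.5% of all genes tested (edgeR). In order of fitted peak from the middle of the dark phase these were Acaca (ZT18.0), Scd2 (ZT19.3), Scd1 (ZT21.0), Fasn (ZT21.8), Srebf1 (ZT23.2), Lpin1 (ZT6.65) and Dgat2 (ZT9.63). The standard errors of the first 5 peaks were 1.00 to 1.38 h, so neighbours in this order do not differ beyond their error. The highest and lowest time did not overlap for any of the 10 genes, which was true of 61.6% of all genes tested. DESeq2 put 6 of the 10 below an adjusted p of 0.05, adding Scd1, Scd2, Srebf1 and Lpin1, against 18.9% of all genes it tested, and JTK_Cycle put only Dgat2 below an unadjusted p of 0.05, as it did 8.91% of the genes with a count.

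Markers of the cells best known for this pathway were found at low levels in the fibroblast-like sums. The summed level of 6 adipocyte markers was between 0.00119 and 0.0552 per 10000 and that of 6 sebocyte markers between 0 and 0.0485, with none of the 12 at 0 over all libraries. Both sums had their highest mean at ZT6, 0.0305 for the adipocyte and 0.0257 for the sebocyte markers. Dgat2 itself was at 0.0300 over the 18 libraries, but levels of unlike genes do not show how much Dgat2 such cells would bring. The adipocyte sum is not specific, since its marker Car3 was also a leading gene of the skeletal muscle-like cluster. Skeletal muscle markers had means from 0.111 at ZT2 to 0.504 at ZT14 in the same fibroblast-like sums. With the 128 cells of the series that held a UMI of Adipoq, Plin1, Cidec, Awat1, Awat2 or Elovl3 left out, Dgat2 (edgeR adjusted p = 3.08e-08) and Fasn (0.0256) passed as before.

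Genes that share the pathway or a regulator with these 10 were followed by list, and the lists were also chosen with earlier results known. Of 17 genes of cholesterol synthesis and handling, a pathway under the related factor SREBP-2, 13 passed in fibroblast-like cells (edgeR, against 13.5% of all genes), all with a fitted peak between ZT16 and ZT4. Among them were Idi1 (log2 amplitude 0.82, peak at ZT0.161), Fdps (0.77, ZT22.8), Stard4, a sterol carrier (0.73, ZT0.477), and Sc5d (0.33, ZT1.71). The median log2 amplitude was 0.59 in this list, 0.25 in the 10 genes of fatty acid and triglyceride synthesis and 0.13 in all genes tested.

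**Figure D3:**
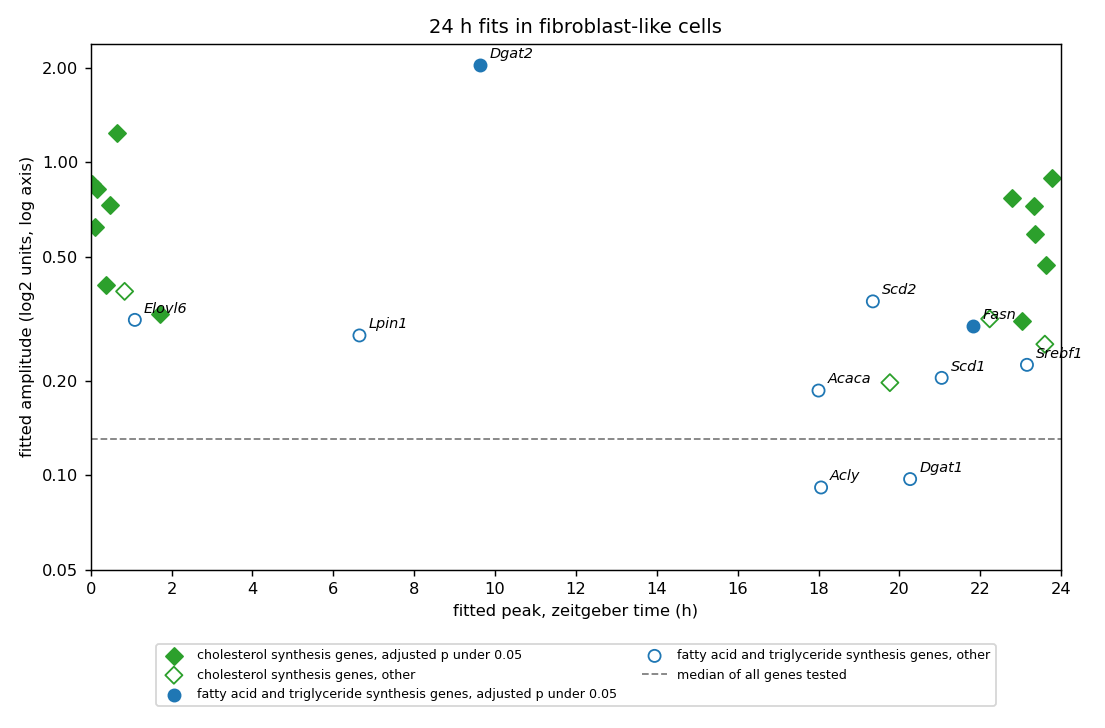
Fitted log2 amplitude (y axis, log scale) against fitted peak in hours of zeitgeber time (x axis) in fibroblast-like cells for the 10 genes of fatty acid and triglyceride synthesis and 17 cholesterol genes; filled symbols passed an adjusted p of 0.05 and the dashed line is the median of all genes tested, 0.13. Dgat2 stands apart at a log2 amplitude of 2.05 near ZT9.63, and Fasn lies at 0.30 near ZT21.8.

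The next 4 lists had shares of calls between 5.56% and 21.4%, around the 13.5% of all genes tested. Of 14 regulators of lipid synthesis 3 passed, Srebf2, which encodes SREBP-2 (log2 amplitude 0.51, peak at ZT0.803), and Insig1 and Insig2, whose products hold SREBP precursors in the endoplasmic reticulum (0.54 at ZT2.32 and 0.13 at ZT2.72). In the rest of fatty acid synthesis and desaturation, 1 of 18 genes tested passed, Fads1, a desaturase of polyunsaturated fatty acids (0.40, ZT1.71). In the rest of glycerolipid synthesis 1 of 12 passed, Lpin3 (0.47, ZT3.68). In the lipid droplet and lipolysis list 2 of 10 passed, Lpl, the lipase that frees fatty acids from lipoproteins (0.63, ZT2.07), and Pnpla2, the triglyceride lipase of the droplet (0.20, ZT2.58).

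Genes of fatty acid uptake and oxidation passed in 8 of 16 cases, and 6 of these 8 had a fitted peak between ZT4 and ZT16. Of all genes 13.5% passed, and 924 of those 1724 peaked in that span. Cpt1a, the entry step of long-chain fatty acids into mitochondria, peaked at ZT5.88 (log2 amplitude 0.59), Slc25a20, the carnitine carrier, at ZT5.00 (0.38) and Acaa2, the last enzyme of the spiral, at ZT6.39 (0.30). Pdk4, a kinase that restrains pyruvate use, peaked at ZT3.68 (0.68) and Acadm, a dehydrogenase of medium-chain fatty acids, at ZT22.8 (0.23). The calls of this paragraph and the one before it are edgeR's, at the same threshold.

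In immune-like cells none of the 10 genes passed the rhythm test by edgeR, at an adjusted or an unadjusted p under 0.05, and neither JTK_Cycle nor DESeq2 called any. JTK_Cycle put 2.47% of the genes with a count under 0.05, and DESeq2 called 0.343% of the genes to which it gave an adjusted p, 9 of the 10 among them. Of all 10761 genes tested there 0.0743% passed after adjustment and 7.85% before. Among the clock genes 5 of 6 passed, Per2 being the exception (edgeR adjusted p = 0.0685), and of the lipid lists Slc27a1, a fatty acid transporter, was the only gene that did. The highest and lowest time did not overlap for 3 of the 10 genes, Acly, Fasn and Srebf1, against 40.9% of all genes tested. Fasn levels in these sums were between 0.0306 and 0.113 with a median of 0.0629, from 2 to 35 UMIs in a library. Its log2 amplitude was 0.21 ± 0.15 (jackknife SE), and the 0.30 of fibroblast-like cells lies within 1 SE of it. Its fitted peak was at ZT3.33 ± 3.72 h, against ZT21.8 ± 1.00 h in fibroblast-like cells. The test of the difference, which takes amplitude and peak together, did not pass (edgeR adjusted p = 0.847). In fibroblast-like sums thinned to the immune-like totals Fasn did not pass either, as given above, while Dgat2 did. Beyond this, whether the lower depth plays a part in the immune-like values was not tested.

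For Dgat2 the immune-like sums were uneven. ZT14 replicate 1 held 0.304 per 10000 from 120 UMIs, and the other 17 libraries held between 0.0127 and 0.153. The fitted log2 amplitude was 0.84 ± 0.51, and edgeR gave an adjusted p of 0.631 and an unadjusted p of 0.0543 for this rhythm. The test of a difference in rhythm between the cell types, which 0.288% of 11477 genes passed, gave an unadjusted p of 0.00282 and an adjusted p of 0.230 for Dgat2. It passed only without ZT14 replicate 1 (0.0468), and with the neutrophil-like cluster left out in all libraries the adjusted p was 0.0987 (edgeR in each case). Before adjustment Dgat2 was 1 of 10 members under 0.05 in this test, against 9.1% of all genes.

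**Figure D4:**
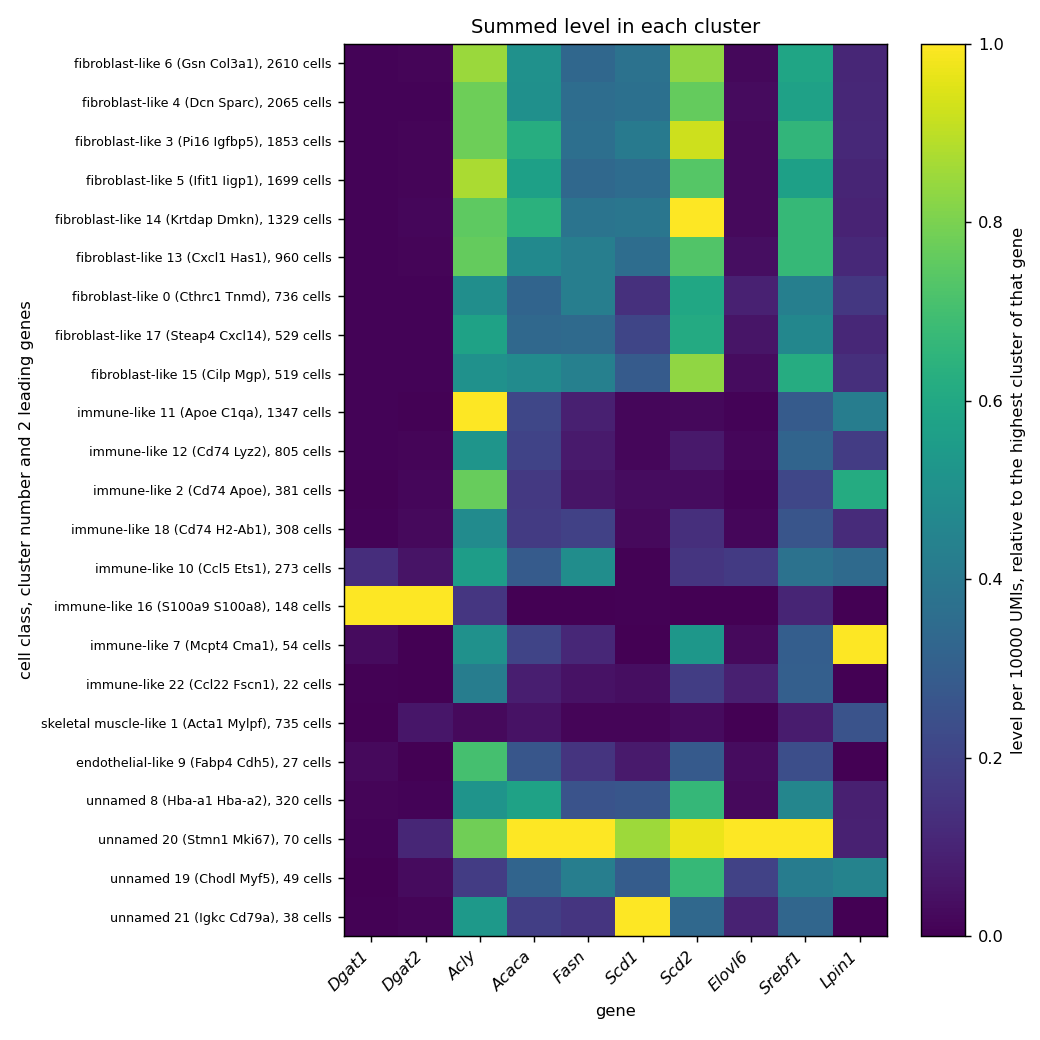
Level of each of the 10 genes (x axis) in each cluster (y axis, with its class, number, 2 leading genes and number of cells), as UMIs per 10000 relative to the cluster where that gene was highest (colour scale from 0 to 1). Dgat1 and Dgat2 are highest in the neutrophil-like cluster of 148 cells and Lpin1 in the mast cell-like one.

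That library stands apart through 1 cluster, led by S100a9 and S100a8 and named neutrophil-like from its markers. In its 148 cells Dgat2 was at 2.26 and Dgat1 at 11.4 per 10000, from 153 and 773 UMIs. The next immune-like cluster for both genes, led by Ccl5 and Ets1, was at 0.117 and 1.50. In these neutrophil-like cells Acaca, Fasn, Scd2, Elovl6 and Lpin1 had no UMI, Scd1 had 1, and Acly was at 0.192. They were few and shallow, at a median of 4349.5 UMIs per cell against 11052.5 in all immune-like cells. A count of 0 therefore does not show absence of a gene of low level. In libraries with few neutrophil-like cells the counts are too small to follow these genes over time. Of the 148 cells, 92 were in ZT14 replicate 1 and 10 at most in any other.

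Between the 2 cell types the 10 genes fell into groups, given here as levels with no test because cells were assigned to types by their expression. Scd1 was at 1.05 ± 0.174 in fibroblast-like and 0.0633 ± 0.0533 in immune-like cells (SD, n = 18), Scd2 at 1.37 ± 0.392 and 0.0995 ± 0.0575, and Fasn at 0.221 ± 0.0495 and 0.0664 ± 0.0239. These 3 genes and Srebf1 (0.335 ± 0.0619 and 0.164 ± 0.0425) were higher in fibroblast-like cells in 18 of 18 libraries. Acaca was in 17 (0.169 ± 0.0277 and 0.0677 ± 0.0228) and Elovl6 in 16.

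The share of free RNA, released by broken cells, was gauged from collagens. Collagen transcripts of fibroblasts (Col1a1, Col1a2 and Col3a1 summed) were found in immune-like cells at 2.24% of their fibroblast-like level, and at 0.327% to 6.69% in single libraries. The immune-like level of Scd1 was 6.00% and that of Scd2 7.27% of the fibroblast-like one. Both lie above the overall collagen value, but that of Scd1 lies inside the range of single libraries. With the neutrophil-like cluster left out, immune-like Scd1 was highest, at 0.232, in ZT22 replicate 3, where collagens were at 6.69%. ZT2 replicate 2, at 0.405%, held no Scd1 there, but ZT22 replicate 1, at 5.22%, held only 0.0510. The part of free RNA in these levels was not tested, so how much comes from immune-like cells is not known. For the other 8 genes the ratio was 30.1% or more.

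Lpin1 and both acyltransferase genes went the other way. Lpin1 was at 0.109 ± 0.0242 in fibroblast-like and 0.327 ± 0.0924 in immune-like cells and higher in the latter in 17 of 18 libraries. Among the immune-like clusters with over 100 cells it was highest in one led by Cd74 and Apoe (0.563) and in one led by Apoe and C1qa (0.387). Both of these clusters were macrophage-like by their markers. In the neutrophil-like cluster Lpin1 had 0 UMIs. Dgat1 was 2.81-fold and Dgat2 2.24-fold higher in immune-like cells, and 1.67-fold and 1.24-fold with the neutrophil-like cluster left out. Dgat1 was higher there in 17 of 18 libraries with or without that cluster, and Dgat2 in 14 with it and 12 without. For Dgat2 these counts varied with the time, though the test of a difference in rhythm did not pass with or without that cluster. With all immune-like cells, Dgat2 was higher in fibroblast-like cells in 1 of 3 libraries at ZT6, 2 of 3 at ZT10 and 1 of 3 at ZT14. Without that cluster, a step chosen after seeing the data, it was in 3 of 3, 2 of 3 and 1 of 3. Either way it was higher in immune-like cells in all 9 libraries of ZT18, ZT22 and ZT2. Acly was alike in both, 0.912 ± 0.149 and 0.875 ± 0.146, and higher in fibroblast-like cells in 10 of 18.

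**Figure D5:**
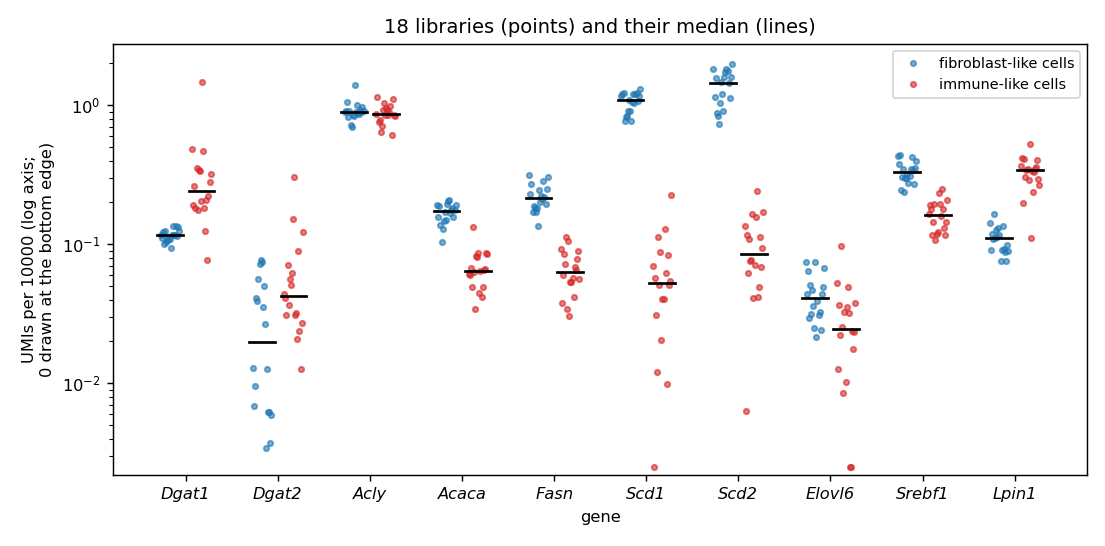
Levels of the 10 genes (x axis) in fibroblast-like (blue) and immune-like (red) cells, as UMIs per 10000 on a log axis (y axis), with 18 libraries as points, their median as a line and libraries at 0 drawn at the bottom edge. Scd1 and Scd2 are over 13-fold apart in their means, Acly overlaps, and Lpin1 and Dgat1 are higher in immune-like cells in 17 of 18 libraries.

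Between the highest and lowest of the 9 fibroblast-like clusters, the level differed 4.02-fold for Elovl6, 2.94-fold for Scd1, 1.98-fold for Acaca and 1.30-fold to 1.79-fold for the other 7 genes. Elovl6 was at 0.123 in the cluster led by Cthrc1 and Tnmd and at 0.0306 to 0.0733 in the other 8. Scd1 was at 0.432 in that same cluster and at 1.27 in the cluster led by Pi16 and Igfbp5. Acly ranged from 0.598, again in the Cthrc1 and Tnmd cluster, to 1.06 in the cluster led by Ifit1 and Iigp1. Dgat1 stayed between 0.0994 and 0.129 in all 9. The clusters are groups of cells from the same 18 libraries, and these levels are summed over libraries without a replicate check.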

How the data were processed

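Single cells of dorsal dermis from 18 mice, 1 library each, were measured by droplet RNA sequencing. The authors mapped the reads and made the table of UMI counts with Cell Ranger 3.1.0 on mm10 (tool and build per the labels), and deposited unnormalized counts, 1 matrix per library, with 23990 barcodes in all and 4850221 to 40827442 UMIs per library. Libraries were grouped by zeitgeber time from the labels. No column was left unused for want of a sample.

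Cells with 850 to 7800 genes and under 13% mitochondrial UMIs, the limits of the study's methods, were kept. UMIs were scaled to 10000 per cell and logged. The 2000 most variable genes, chosen after leaving out the 10 genes, the lipid lists and the clock genes, gave 30 principal components, 15 neighbours and Leiden clusters at a resolution of 0.8 (scanpy 1.11.5, igraph 0.11.9). The libraries were not integrated. Clusters were named where at least 3 markers of a type were detected, and rules that leave shallow or mixed clusters unnamed were added after the clusters had been seen, so names may differ from the study's. This left 735 skeletal muscle-like, 27 endothelial-like and 477 unnamed cells out of the comparisons. The caller Scrublet marked 0.456% of cells, 77 in all, fewer than the 219 removed at an assumed doublet rate in 1 alternative. Its calls were not used, and doublets were kept in the main results. In all, 36 barcodes occurred in 2 or more libraries (73 cells) and were kept.

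Rhythm was tested on the summed UMIs with edgeR 4.0.16 in R 4.3.3 (TMM, filterByExpr, cosine and sine of a 24 h period), and the difference between cell types as their interaction with cell type. The fits were also run on simulated counts, with the outcome not given here. DESeq2 1.42.0 and JTK_Cycle with periods of 20, 24 and 28 h were alternatives, as were other cell assignments, no filter, 6 unordered times, thinning and leaving out each library. Leaving out the neutrophil-like cluster was chosen after seeing the data. Standard errors of fitted amplitudes and peaks are jackknife errors over libraries. Intervals from counting were not used, and errors are between mice.

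The genes and lists were chosen with earlier results of these data known. All 10 genes are named, with up to 5 called genes per list by adjusted p, the 3 closest genes for each called one, and 6 clock genes. Some genes that this rule would name are not reported here. Cd36, Cpt2 and others called beyond 5 are counted only, and Slc27a1 was named after its value was seen. Gene positions come from GENCODE vM21 on GRCm38. The replicate number marks the 24 h cycle of collection per the labels; deviations from the group means of libraries with the same number had a mean correlation of 0.0477 in fibroblast-like and 0.0270 in immune-like cells (45 pairs each, 0.262 at most).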

Additional observations from a re-analysis of the deposited data

Results flagged for a closer look

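These 3 values lie in cells outside the compared types, where a gene had at least 20 UMIs in a cluster and at least 3 times its mean fibroblast-like level. Dgat2 was at 0.134 UMIs per 10000 in the 735 skeletal muscle-like cells, from 89 UMIs, which is 4.47 times its mean fibroblast-like level. In an unnamed cluster of 70 cells led by Stmn1 and Mki67, genes of dividing cells, Dgat2 was at 0.239 per 10000, from 51 UMIs in 12.9% of the cells. In the same cluster Elovl6 was at 1.31 per 10000, from 280 UMIs in 24.3% of the cells, 30.1 times its mean fibroblast-like level. All 6 fibroblast markers were detected in this cluster taken as a whole, and its leading genes included Lgals7 and the keratinocyte gene Krt14. At the clustering resolution of 2, a keratinocyte-like cluster of 17 cells, led by Lgals7 and Krt14, stood apart. Whether such cells held the Elovl6 UMIs of the 70 cells was not tested. The 70 cells came from 16 libraries with at most 18 in any, and no time course was fitted. Groups of 3 libraries were not tested for single outlying libraries.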

How the results depend on the processing

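Dgat2 passed in fibroblast-like cells under all 11 other settings and without each of the 18 libraries. No immune-like member passed under any setting in which it was tested. Some were not tested under all 11, with Elovl6 tested under 8 and Dgat2, Fasn and Scd2 under 9. With 2 of the 10 genes called by edgeR in fibroblast-like cells, DESeq2 called 6, JTK_Cycle 1 and the largest cluster alone 1, and between 1 and 5 passed when 1 library was left out, with 1 without ZT10 replicate 3 or ZT22 replicate 3, 4 without ZT10 replicate 2 or ZT22 replicate 1, and 5 without ZT14 replicate 1. Fasn was lost under 4 of the 11 settings. With the replicate block, 3 passed, Srebf1 being added, and the pairing changed no other member's call in any comparison (in all genes it gave 1815, 8 and 36 calls). No causes of these changes were tested.

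Over all genes, the 1724 fibroblast-like calls became 1091 with 6 unordered times, 800 in the largest cluster alone and 648 after thinning, and 1260 to 1932 without 1 library. The 8 immune-like calls became 34 with DESeq2, 13 without a filter, 28 in the largest cluster, 486 by JTK_Cycle at an unadjusted p and 0 with types from marker UMIs (edgeR, fewer cells and 5257 genes tested), and 7 to 15 without 1 library. The 33 differences between types became 92 with DESeq2, 7 with 6 unordered times and 3 with types from marker UMIs, and 14 to 44 without 1 library. With members, 0 to 1 differed without 1 library, Dgat2 without ZT14 replicate 1.

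With every cell weighted equally, Dgat1 was at 0.660 in immune-like cells in place of 0.326, Dgat2 was at 0.131 in place of 0.0672 there (0.0312 in place of 0.0300 in fibroblast-like cells), within its SD of 0.0694, and the other 18 levels moved by less than 1 SD under both rescalings. Depth limits single libraries for Dgat2 and Elovl6, with as few as 1 and 9 UMIs in fibroblast-like sums. In immune-like sums Elovl6, Scd1 and Dgat2 had 0 or 1 UMI in some libraries, but Acly had 43 to 439.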

Other observations

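In smaller groups of cells the 10 genes had levels that belong in no comparison, given as sums over all libraries without a replicate check. The 54 mast cell-like cells, led by the proteases Mcpt4 and Cma1, held Lpin1 and Scd2 at 0.914 UMIs per 10000 each, from 27 UMIs of each, above every other immune-like cluster for both genes, and no UMI of Scd1. An unnamed cluster of 38 cells led by the antibody chain gene Igkc and Cd79a of the B cell receptor held Scd1 at 3.11 per 10000, from 101 UMIs, and Scd2 at 0.586. The 735 skeletal muscle-like cells held Lpin1 at 0.233 per 10000 and Dgat1 at 0.0226.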
